A study of Homo sapiens with 10 samples.

Results

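CREB3L1 and ATF6 encode transcription factors that are made as membrane proteins of the endoplasmic reticulum and are set free by proteases, and 8 genes of this system are described here. The genes are the CREB3 family members CREB3, CREB3L1, CREB3L2 and CREB3L4, the factors ATF6 and ATF6B, and the proteases MBTPS1 and MBTPS2. They were found by gene name among the 58721 genes of the count table, and all 8 were among the 17045 genes with enough counts to be tested. The group was selected on measured values, because CREB3L1 was lower in R475C than in wild-type. The contrast between the genotypes is therefore a description for the 8 genes, and no p-value is given for them.

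Factors of this kind sit in the membrane of the endoplasmic reticulum with their DNA-binding part facing the cytosol. When they travel to the Golgi, site-1 protease (the product of MBTPS1) cuts them on the lumenal side and site-2 protease (the product of MBTPS2) then cuts within the membrane, and the released part enters the nucleus. ATF6 is best known for inducing chaperone genes when unfolded protein builds up, and the CREB3 family for genes of the secretory pathway, which B cells enlarge as they become antibody-secreting plasma cells.

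Lymphoma cells of the line labelled U2392 had been cloned from single cells after an editing step in which Cas9, a guide RNA and a double-stranded template were used to change DDX3X, the gene of an RNA helicase. In the 4 R475C samples the template carried the R475C change, and in the 6 wild-type samples it carried the wild-type sequence. Templates of both genotypes also held silent changes, in the PAM and to make a SpeI site, so the controls had been edited and cloned as well. Polyadenylated RNA was sequenced, and no treatment other than the editing is given in the labels. Whether each replicate was its own clone or a further culture of the same clone is not stated, so p-values cover just the spread among these samples, part of which may be technical. A clone can also carry differences that have nothing to do with the edit.

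Total counts per library ran from 8928539 to 53779005, with R475C replicate 4 the lowest. By their deviations from the genotype means the samples fell into 2 sets that cross the genotypes, set 1 holding replicates 1 and 4 of wild-type with replicates 1 and 3 of R475C, and set 2 the other 6 samples. The labels do not name these sets. They were formed from these same counts, so fits within a set, or with the sets as a covariate, are a description. Such fits are no independent support for a difference. DDX3X itself lay at 357 to 551 CPM in wild-type and 754 to 1047 CPM in R475C, where CPM is a count relative to the TMM-scaled size of its library. B-cell markers summed to 3223 to 4123 CPM in wild-type and 3397 to 4203 in R475C. T-cell markers summed to 3.84 to 9.69 CPM in wild-type and 5.98 to 10.5 CPM in R475C, nearly all of it CD247, and CD3D and CD3G had 0 counts in all 10 samples. Myeloid markers summed to at most 1.05 CPM and erythroid markers to at most 0.407 CPM.

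CREB3L1 is the member on which the selection rests. It encodes a factor, also called OASIS, known for driving collagen and other secretory genes in bone-forming cells. The gene (ENSG00000157613.10) lies on chromosome 11 from 46277661 to 46321422 on the plus strand (GENCODE release 29, GRCh38), and its longest coding sequence has 519 codons. No other gene of the annotation overlaps it. RefSeq (GRCh38.p14) starts the gene at 46295159, which is 17498 bases inside the GENCODE gene and 33 bases from the nearest GENCODE transcript start. The stretch before that start is shown because CREB3L1 is the member whose level differed most, and the part that falls in an exon of the gene was left out. It covers 217 bases, chr11:46294909-46295125, on the plus strand:
CREB3L1: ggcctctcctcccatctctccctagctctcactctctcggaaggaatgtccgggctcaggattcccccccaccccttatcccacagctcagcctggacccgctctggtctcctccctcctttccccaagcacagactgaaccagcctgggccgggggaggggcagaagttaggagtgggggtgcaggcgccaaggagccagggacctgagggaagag
There are no capitals because none of the 6 motifs searched, which are spelled out with the target genes, has its letters in this window. Of the 250 bases before the RefSeq start 64.8% are G or C, against a median of 58.0% over all 35116 RefSeq windows. They hold 7 CG pairs, against a median of 11.

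In wild-type replicates 1 to 6 CREB3L1 was at 19.1, 10.5, 15.04, 27.7, 18.9 and 13.4 CPM, from 656, 302, 322, 694, 353 and 456 counts. In R475C replicates 1 to 4 it was at 2.48, 0.794, 2.48 and 1.104 CPM, from 48, 42, 82 and 10 counts. Every R475C sample lay below every wild-type sample, and the lowest wild-type sample was 4.25-fold above the highest R475C sample. The mean was 17.5 ± 6.003 CPM (SD, n = 6) in wild-type and 1.71 ± 0.891 CPM (SD, n = 4) in R475C. The log2 fold change fitted by edgeR was -3.33 (SE 0.39), which is 10.1-fold lower. Of all tested genes 30, or 0.176%, had a lower value. In bulk RNA, fewer cells that express a gene and less of its RNA per cell cannot be told apart.

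The depth of the libraries bears on the low values. The 10 counts in R475C replicate 4 have an exact Poisson 95% interval of 4.795 to 18.4 counts, or 0.530 to 2.03 CPM, which covers counting error only. The upper end of that interval is still below each wild-type value. The deepest library, R475C replicate 2, gave the lowest level, with an interval of 0.572 to 1.07 CPM. R475C replicates 1 and 3 were higher than that, with intervals of 1.83 to 3.29 and 1.97 to 3.07 CPM.

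CREB3L1 varied more among samples of 1 genotype than the other members did, with a coefficient of variation of 34.4% in wild-type and 52.0% in R475C. Part of this variation ran along the 2 sets of samples. In set 1 the means were 23.4 CPM in wild-type and 2.48 CPM in R475C, a 9.45-fold ratio with 2 samples a genotype. In set 2 they were 14.5 and 0.949 CPM, a 15.3-fold ratio with 4 and 2 samples. Levels of both genotypes were thus higher in set 1, and CREB3L1 was lower in R475C within each set. Fitted within set 1 alone the log2 fold change was -3.23 (SE 0.28), and within set 2 alone it was -4.02 (SE 0.33). With the sets as a covariate it was -3.61 (SE 0.25).

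**Figure D1:**
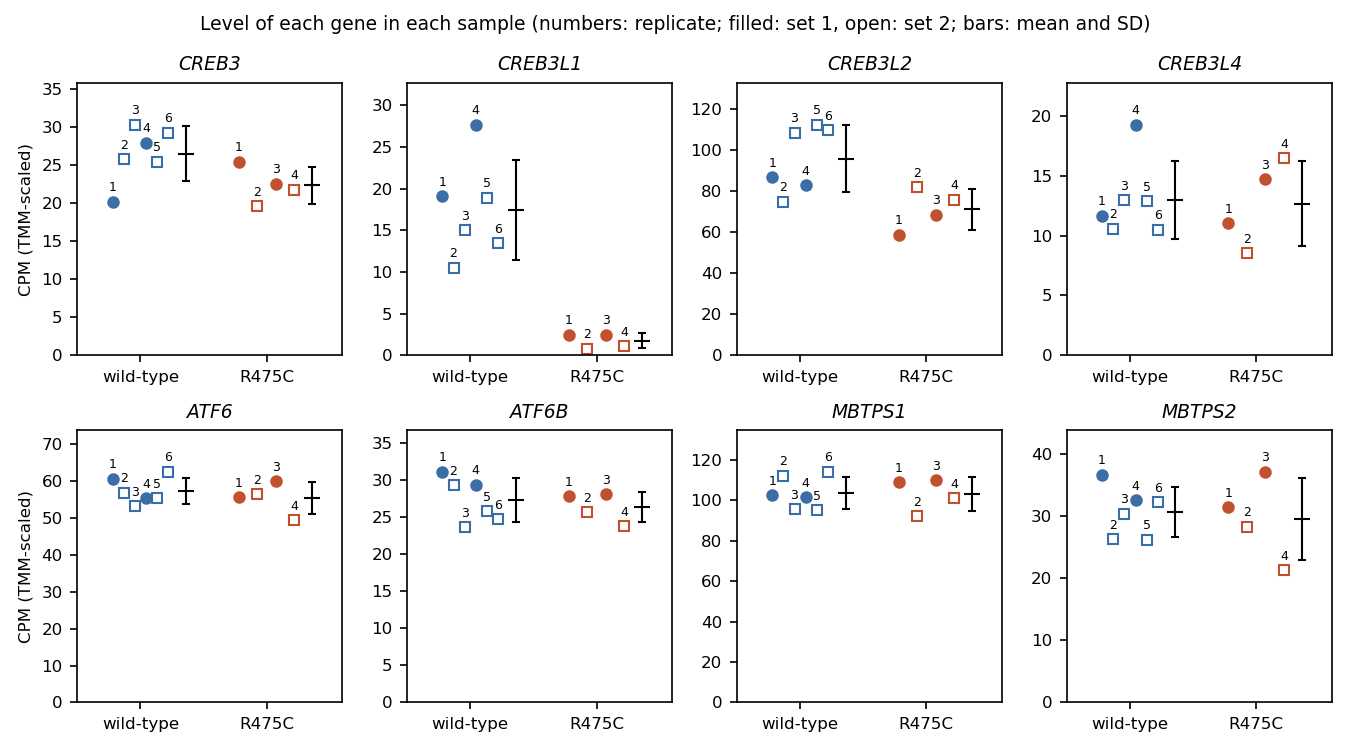
Level of each of the 8 genes in each sample, in CPM, with wild-type and R475C side by side and the 2 sets of samples marked by filled circles and open squares. In CREB3L1 the R475C samples sit between 0.794 and 2.48 CPM, below all wild-type samples, while in the other 7 genes the genotypes overlap.

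**Figure D2:**
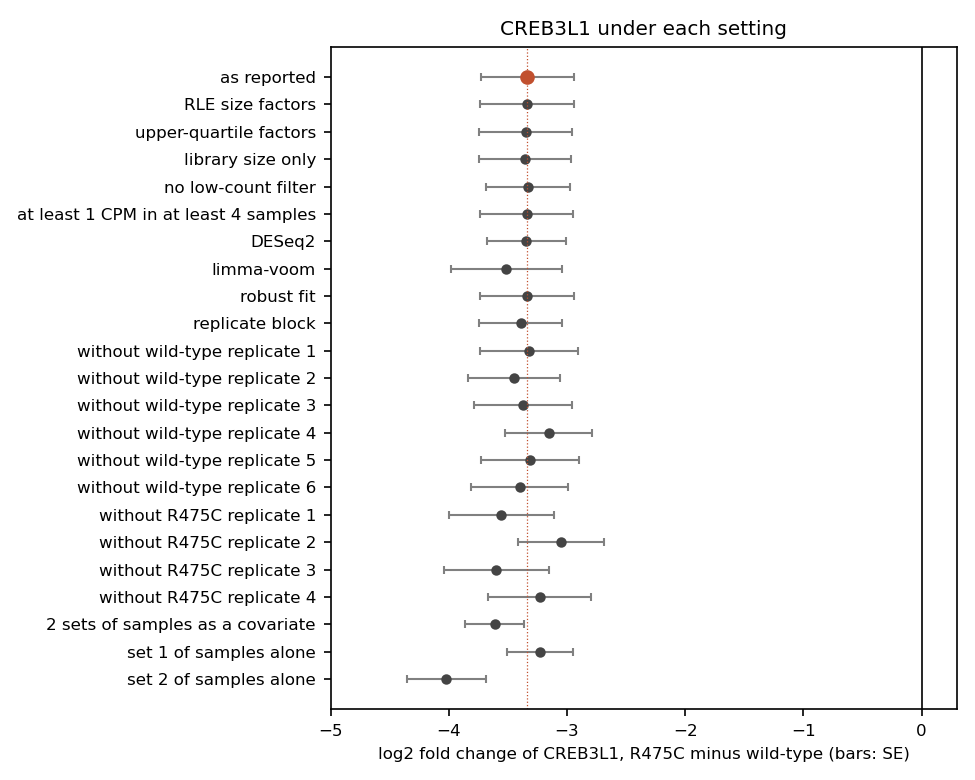
Log2 fold change of CREB3L1, R475C minus wild-type, under each way of processing and without each sample in turn, with bars of 1 SE. Without a sample the values run from -3.60 to -3.05, and the lowest value, -4.02, comes from set 2 of the samples alone.

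Summed stromal and epithelial markers were at 35.1 to 39.0 CPM in wild-type and 24.3 to 29.1 CPM in R475C, without overlap. Of the 4 tested genes of that list none passed edgeR's test at an adjusted p of 0.05, and 1 was lower at an unadjusted p of 0.05. Each of its genes with values below overlapped between the genotypes. Single genes without overlap were 6.11% of all tested genes, and nothing is read from the separation of the sums. CREB3L1 is itself known from collagen-making cells. COL1A2 and KRT18, 2 of the 8 markers of that list, had 0 counts in all samples. EPCAM made up much of the sum, at 16.4 to 37.2 CPM in wild-type and 21.2 to 28.9 CPM in R475C, and overlapped between the genotypes. In R475C replicates 1 to 4 DCN, a matrix protein of fibroblasts, was at 0, 2.67, 0.0302 and 3.42 CPM, lower in replicates 1 and 3, those of set 1. It was at 0.146 CPM in wild-type replicate 1 and 0 CPM in wild-type replicate 4, and at 7.29 to 14.8 CPM in the remaining 4 wild-type libraries. These 2 wild-type samples, nearly without DCN, are those of set 1, in which CREB3L1 was higher in both genotypes. They held CREB3L1 at 19.1 and 27.7 CPM, its highest levels of the 10 samples. LUM, another such matrix protein, had 0 counts in those 2 samples and in all R475C samples. COL1A1, a collagen of the same list, was at 0.495 and 0.599 CPM in those 2 samples and at 1.59 to 3.71 CPM in the remaining 4 wild-type libraries. In R475C replicates 1 to 4 COL1A1 was at 0.155, 0.132, 0.242 and 3.09 CPM. Whether the level of CREB3L1 goes with these markers was not tested.

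The other CREB3 family members overlapped between the genotypes. CREB3L2 (ENSG00000182158.14), the closest relative of CREB3L1 and a factor known from cartilage and other secretory cells, lies on chromosome 7 from 137874979 to 138002067 on the minus strand. In wild-type it ran from 74.8 CPM over a median of 97.6 to 112 CPM, and R475C replicates 1 to 4 were at 58.7, 81.9, 68.6 and 75.8 CPM. R475C replicates 1 and 3 lay below the wild-type range and replicates 2 and 4 inside it. The means were 95.8 ± 16.2 and 71.2 ± 10.0 CPM, with a log2 fold change of -0.43 (SE 0.14). Within set 1 it was -0.41 (SE 0.16) and within set 2 it was -0.36 (SE 0.17).

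CREB3 (ENSG00000107175.11), the founding member, also called Luman, lies on chromosome 9 from 35732335 to 35737004 on the plus strand. In wild-type it ran from 20.2 over a median of 26.8 to 30.3 CPM, and the R475C replicates were at 25.4, 19.6, 22.5 and 21.8 CPM. R475C replicate 2 lay just below the wild-type range and the others within it. The log2 fold change was -0.25 (SE 0.13), from 26.5 ± 3.63 to 22.3 ± 2.41 CPM. It was 0.0044 (SE 0.22) within set 1 and -0.43 (SE 0.14) within set 2, and whether the sets differ was not tested.

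CREB3L4 (ENSG00000143578.15), a relative known from prostate and testis, lies on chromosome 1 from 153967534 to 153974363 on the plus strand. In wild-type it ran from 10.5 over a median of 12.3 to 19.3 CPM, and the R475C replicates were at 11.1, 8.51, 14.7 and 16.5 CPM. R475C replicate 2 lay below the wild-type range and the other 3 within it, at means of 13.0 ± 3.27 and 12.7 ± 3.58 CPM. The log2 fold change was -0.04 (SE 0.22), the widest error of the members other than CREB3L1. CREB3L4 shares 280 exonic bases with SLC39A1 and 95 with JTB on the opposite strand, and CREB3 shares 139 with GBA2 and 61 with TLN1. No source used here gives the strand setting of the counting, so reads from these overlaps cannot be told apart.

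The differences of both ATF6 factors were smaller than their errors. ATF6 (ENSG00000118217.5), the stress sensor that induces chaperones of the endoplasmic reticulum, lies on chromosome 1 from 161766294 to 161964070 on the plus strand. It ran from 53.3 over a median of 56.2 to 62.6 CPM in wild-type, and the R475C replicates were at 55.7, 56.6, 60.0 and 49.5 CPM. Its coefficient of variation in wild-type, 6.19%, was the lowest of the 8 members there. The log2 fold change was -0.05 (SE 0.08), from 57.4 ± 3.55 to 55.4 ± 4.38 CPM.

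ATF6B (ENSG00000213676.12), a paralog regarded as the weaker activator, lies on chromosome 6 from 32115264 to 32128253 on the minus strand. It ran from 23.6 over a median of 27.6 to 31.1 CPM in wild-type, and the R475C replicates were at 27.8, 25.7, 28.0 and 23.7 CPM. All R475C values fell within the wild-type range. The log2 fold change was -0.05 (SE 0.11), from 27.3 ± 3.01 to 26.3 ± 2.03 CPM. ATF6B shares 289 exonic bases with AL662884.2 and 71 with TNXB on its own strand.

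MBTPS1 (ENSG00000140943.16), which encodes site-1 protease, a serine protease of the Golgi, lies on chromosome 16 from 84053761 to 84116906 on the minus strand. It ran from 94.99 over a median of 102 to 114 CPM in wild-type, and the R475C replicates were at 109, 92.0, 109.8 and 101 CPM. R475C samples lay on both sides of the wild-type median. The means were 103 ± 8.05 and 103 ± 8.33 CPM, with a log2 fold change of -0.01 (SE 0.09). It was 0.11 (SE 0.15) in set 1 and -0.11 (SE 0.12) in set 2.

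MBTPS2 (ENSG00000012174.11), which encodes site-2 protease, a zinc metalloprotease that cuts inside the membrane, lies on the X chromosome from 21839636 to 21885424 on the plus strand. It ran from 26.2 over a median of 31.3 to 36.7 CPM in wild-type, and the R475C replicates were at 31.4, 28.3, 37.1 and 21.3 CPM. R475C held both the highest and the lowest sample of this gene. The log2 fold change was -0.05 (SE 0.15), from 30.7 ± 4.04 to 29.6 ± 6.60 CPM. The small gene YY2 lies within MBTPS2 on the same strand and shares 1093 exonic bases with it, and its own log2 fold change was 0.37 (SE 0.25).

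Over all tested genes 2.46% were past an adjusted p of 0.05 in edgeR's quasi-likelihood test, 1.15% lower and 1.31% higher in R475C. CREB3L1, 1 of the 8 members, is among these, which its selection on this contrast had fixed. The genotypes did not overlap in 1 member, again CREB3L1, and in 6.11% of all tested genes. All 8 fitted log2 fold changes were below 0, with a median of -0.05 against 0.00 over all tested genes. Leaving out 1 sample took CREB3L4 to as much as 0.11, MBTPS1 to 0.04 and MBTPS2 to 0.06, and CREB3, ATF6 and MBTPS1 in set 1 alone and CREB3L4 in set 2 alone were also above 0. Since these genes were selected on this contrast, nothing is read from the counts.

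Levels of different genes were compared as RPKM, the CPM per kilobase of each gene's joined exons. In wild-type the order was CREB3 (13.9 ± 1.90 RPKM), CREB3L2 (10.9 ± 1.85), MBTPS1 (10.1 ± 0.787), ATF6B (7.53 ± 0.83), ATF6 (7.27 ± 0.450), CREB3L4 (4.47 ± 1.13), CREB3L1 (4.32 ± 1.49) and MBTPS2 (3.44 ± 0.452). Only MBTPS1 and ATF6B, and ATF6 and CREB3L4, were neighbours in that order whose ranges over samples did not overlap. The ranges of the other neighbours overlapped, although CREB3 was above CREB3L2 within each of the 6 samples.

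In R475C the RPKM order was CREB3 (11.7 ± 1.26), MBTPS1 (10.1 ± 0.814), CREB3L2 (8.10 ± 1.14), ATF6B (7.25 ± 0.558), ATF6 (7.02 ± 0.555), CREB3L4 (4.37 ± 1.23), MBTPS2 (3.31 ± 0.739) and CREB3L1 (0.424 ± 0.221). The neighbours without overlap were ATF6 and CREB3L4, and MBTPS2 and CREB3L1. In wild-type CREB3L1, at 2.61 to 6.86 RPKM, overlapped CREB3L4 and MBTPS2, and also ATF6 (from 6.76) and ATF6B (from 6.51). In R475C it lay below every sample of the other members. The order depends on the length used: per kilobase of the longest transcript MBTPS1 came first and CREB3 second in both genotypes, and in wild-type CREB3L1 came last.

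**Figure D3:**
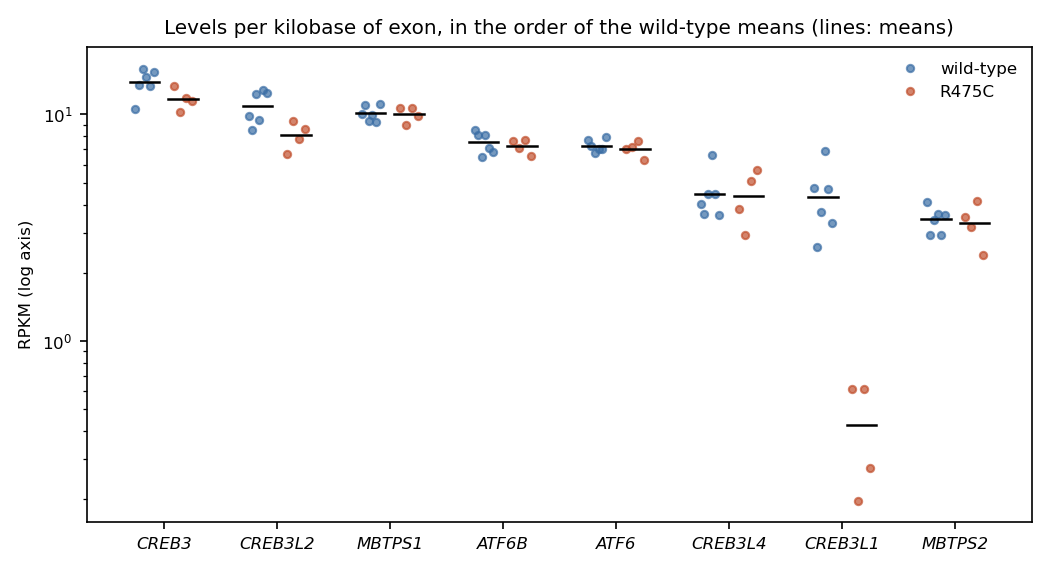
Level of each of the 8 genes in RPKM, on a log axis, with a point for each sample and a line at the mean of each genotype, ordered by the wild-type mean. CREB3L1 has a mean of 4.32 RPKM in wild-type and 0.424 RPKM in R475C, and the ranges of the other genes overlap between the genotypes.

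The summed RPKM of the 4 CREB3 family members ran from 28.3 to 37.6 in wild-type and from 22.7 to 26.0 in R475C, at means of 33.6 ± 3.89 and 24.6 ± 1.41. Of the difference of 8.99 RPKM between the means, CREB3L1 made up 3.90, CREB3L2 2.80, CREB3 2.19 and CREB3L4 0.0998. The sum includes CREB3L1, on which the group was selected, so nothing is read from the separation of the sums. Each of the other family members overlapped between the genotypes. CREB3L1 was 12.8% ± 3.78 of the family sum in wild-type and 1.71% ± 0.875 in R475C. The share of CREB3 was 41.5% in wild-type and 47.7% in R475C, that of CREB3L2 32.5% and 33.1%, and that of CREB3L4 13.2% and 17.6%. These shares are relative to a sum in which CREB3L1 was lower in R475C, and are no rise in level. In RPKM the R475C means of CREB3, CREB3L2 and CREB3L4 were 11.7, 8.10 and 4.37, below the wild-type means of 13.9, 10.9 and 4.47. CREB3L3, the liver member of the family, had at most 1 count in any sample and was not tested.

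On chromosome 11 around CREB3L1, of the 27 other tested genes within 1 Mb, 1 passed the test, and the median log2 fold change was 0.03, with 13 genes below 0. That gene was DDB2 (-0.42, SE 0.09, edgeR adjusted p = 0.0369), which acts in the repair of ultraviolet damage and was named after its value was seen. The nearest tested genes were PHF21A, 156483 bases before CREB3L1, at a log2 fold change of 0.26 (SE 0.10), and DGKZ, 11483 bases after it, at 0.34 (SE 0.08). Both values lay on the other side of 0 from that of CREB3L1.

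The genes whose pattern was most like that of CREB3L1 were sought among 11801 protein-coding genes, by Pearson's r of log2 CPM over the 10 samples. Among the 5 closest were RGCC (0.989), MSRB1 (0.978), CKLF (0.968) and TMEM14C (0.964). The samples share their genotypes, sets and libraries. By the deviations from the genotype means, which leave the genotype difference out, the 5 closest genes were PTK2B (0.991), RGS10 (0.991), SLC41A3 (0.978), H2AFJ (0.972) and KANK2 (0.968). Of the 11801 genes, 302 had an r above 0.8 over the samples and 473 over the deviations, so a high r is not particular to the genes named. None of the 5 closest genes by 1 measure was among the 5 closest by the other. With Spearman's rho in place of r, 1 of the first 5 and 3 of the second 5 stayed.

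Genes that work with the members were described from 9 lists, of target genes, partners, other substrates and other proteases. The lists held 91 genes that are no members, and 83 of them were tested. In R475C 6 of the 83 were lower and 1 was higher at an adjusted p of 0.05 in edgeR's quasi-likelihood test, together 8.43%, against 2.46% of all tested genes. The median log2 fold change of the 83 was -0.03, against 0.00 over all genes. At an unadjusted p of 0.05, 14 were lower (16.9%) and 5 were higher (6.02%), against 8.86% and 8.45% of all tested genes. The lists were chosen with earlier results of these data known. These shares, and the counts in each list below, are therefore a description, and no excess is read from them. The count of lower genes changed with single libraries, as did calls over all genes, which went from 419 to between 142 and 794. Leaving out wild-type replicate 1 gave 8, wild-type replicate 4 gave 5, wild-type replicate 2 gave 3, R475C replicate 3 gave 1, and each of the other 6 samples gave 2. For higher genes, leaving out wild-type replicate 1 gave 3 and leaving out R475C replicate 2, 3 or 4 gave 0.

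Among 18 target genes of ATF6, 3 fell and none rose, with a median log2 fold change of -0.07. They were XBP1, HSP90B1 and PDIA6. HSPA5, the main chaperone of the endoplasmic reticulum and the best known ATF6 target, was at 568 ± 76.6 CPM in wild-type and 607 ± 35.1 CPM in R475C, and its difference of 0.09 on the log2 scale (SE 0.10) did not pass (edgeR adjusted p = 0.705). It was among the 15 genes of the list that did not pass.

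XBP1 encodes the factor through which the sensor ERN1 (IRE1) acts, and its gene is itself a target of ATF6. In wild-type it ran from 193 over a median of 253 to 279 CPM, and the R475C replicates were at 139.8, 137, 137 and 123 CPM. The genotypes did not overlap. XBP1 fell by 0.87 on the log2 scale (SE 0.11, edgeR adjusted p = 0.00216) and passed in all 10 fits that left out 1 sample. It also passed within each set of samples, but the sets were formed from these same counts. HSP90B1, a chaperone of secreted proteins, fell from 432 ± 72.2 CPM in wild-type to 293 ± 16.4 CPM in R475C (-0.56 on the log2 scale, SE 0.12, adjusted p = 0.0400). PDIA6, a disulfide isomerase, fell from 493 ± 60.6 to 349.6 ± 15.2 CPM (-0.50, SE 0.10, adjusted p = 0.0272). PDIA6 shares 1033 exonic bases with ATP6V1C2 on the opposite strand, which had a log2 fold change of -0.51 (SE 0.09), and their reads cannot be told apart. HSP90B1 shares 121 exonic bases with C12orf73 and 105 with TTC41P on the opposite strand, and 131 with MIR3652 on its own strand. HSP90B1 and PDIA6 each passed in 2 of the 10 fits that left out 1 sample. In set 2 alone HSP90B1 was at -0.64 and PDIA6 at -0.59, and both passed, while in set 1 alone they were at -0.34 and -0.26 and did not (edgeR adjusted p = 0.528 and 0.599). Whether the sets differ was not tested.

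ATF6 binds, with the factor NF-Y, the endoplasmic reticulum stress response element (ERSE), in which CCAAT and CCACG stand 9 bases apart. RefSeq windows (GRCh38.p14) of 250 bases before to 50 after each start were searched on both strands, and 27 of 35116 windows, 0.0769%, held it. It was found in 6 of the 17 ATF6 target genes that had a window. The matches of 4 of them are shown, because genes that fell and HSPA5, which did not pass the test, both hold the element. The letters in capitals are those searched for, and the bases between them differ. They are written 5′ to 3′ along each gene, with the CCAAT and CCACG parts in capitals, and XBP1, PDIA6 and HSPA5 are on the minus strand and HSP90B1 on the plus strand. The positions are chr22:28800603-28800621 for XBP1, chr12:103930216-103930234 for HSP90B1, chr2:10812853-10812871 for PDIA6 and chr9:125241391-125241409 for HSPA5:
XBP1: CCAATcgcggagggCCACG
HSP90B1: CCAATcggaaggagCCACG
PDIA6: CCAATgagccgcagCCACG
HSPA5: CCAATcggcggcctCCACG
A match describes letters in the window and is no evidence of binding in these cells. CALR and CRELD2 held the element too, on the other strand. HSP90B1 also held a second match on the other strand, at chr12:103930321-103930339.

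None of the 9 windows of the 8 members held the ERSE, nor ERSE-II (ATTGG and CCACG with 1 base between, in 0.0541% of windows), TGACGTGG (0.729%) or TGACGTGA (0.450%). The cyclic AMP response element TGACGTCA, in 1.85% of windows, was found in 1 member, CREB3L2, at chr7:138002258-138002265, which is positions -179 to -172 from its start. It is shown in capitals with its flanks, on the minus strand (chr7:138002252-138002271), as the only such match among the members:
CREB3L2: cctcggTGACGTCAcagaca
CCAAT alone, which is part of the ERSE, was in 34.6% of windows and in those of the members ATF6B and CREB3L2. Where letters were not found, this says only that they are not in the window.

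Reported target genes of the CREB3 family had 2 of 8 tested genes lower and none higher, with a median log2 fold change of -0.23. CDKN1A, the cell-cycle inhibitor p21 and a reported target of CREB3L1, fell from 125 ± 36.6 to 29.7 ± 18.2 CPM (-2.09 on the log2 scale, SE 0.38, edgeR adjusted p = 0.0163). The R475C replicates were at 14.9, 33.9, 16.3 and 53.7 CPM and the wild-type samples at 72.8 to 157 CPM, with no overlap. CDKN1A is also regulated by p53 and other factors. KDELR2, a receptor that returns chaperones to the endoplasmic reticulum, fell from 116 ± 9.46 to 90.3 ± 4.87 CPM (-0.36, SE 0.08, adjusted p = 0.0448). It shares 376 exonic bases with DAGLB on its own strand, and it passed in 2 of 10 fits without 1 sample, against 9 of 10 for CDKN1A. KDELR2 was at -0.26 in set 1 alone and -0.40 in set 2 alone and passed in neither (edgeR adjusted p = 0.647 and 0.0876). CDKN1A passed in each set, but the sets were formed from these same counts.

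Of 15 genes of the COPII coat, which carries cargo and these factors from the endoplasmic reticulum to the Golgi, none passed the test. Their median log2 fold change was -0.12, with 5 genes lower and none higher at an unadjusted p of 0.05.

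**Figure D4:**
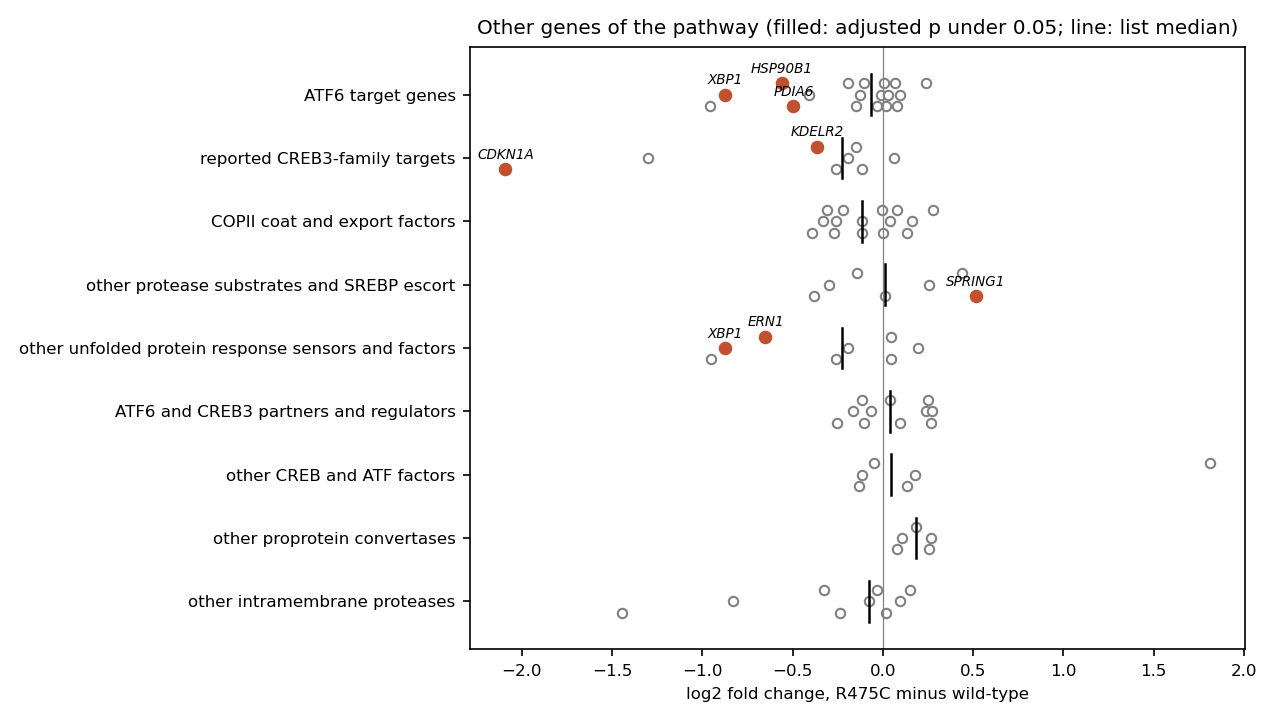
Log2 fold change, R475C minus wild-type, of each tested gene of the 9 lists, 1 point per gene, with the median of each list marked and genes past an adjusted p of 0.05 filled and named. The 6 genes called lower lie in 3 lists, and medians of the lists lie between -0.23 and 0.18.

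Other substrates of the proteases and the escort genes of SREBP had 1 of 7 tested genes higher and none lower, with a median of 0.01. SPRING1, whose product supports the protease encoded by MBTPS1, rose from 93.7 ± 9.31 to 133.9 ± 13.1 CPM (0.51 on the log2 scale, SE 0.10, edgeR adjusted p = 0.0195). The R475C replicates were at 116, 139.5, 133 and 147 CPM and the wild-type samples at 80.1 to 109 CPM, with no overlap. SPRING1 passed in 7 of the 10 fits that left out 1 sample. In set 2 alone it was at 0.66 and passed (edgeR adjusted p = 0.0172), and in set 1 alone it was at 0.33 and did not (adjusted p = 0.508). The sterol factors SREBF1 (-0.38, SE 0.19, adjusted p = 0.340) and SREBF2 (0.01, SE 0.17, adjusted p = 0.983) and their escort SCAP (-0.15, SE 0.12, adjusted p = 0.584) did not pass. SREBF1 shares 556 exonic bases with RAI1, and SREBF2 shares 280 with SREBF2-AS1, each on the opposite strand.

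Of 8 other sensors and factors of the unfolded protein response, 2 fell and none rose, with a median of -0.23. These were XBP1 and ERN1, the sensor that splices XBP1 RNA. ERN1 went from 28.6 ± 5.43 to 18.2 ± 1.08 CPM, a change of -0.65 on the log2 scale (SE 0.15, edgeR adjusted p = 0.0458), and passed in 2 of 10 fits without 1 sample. It was at -0.59 in set 1 alone and -0.69 in set 2 alone and passed in neither (edgeR adjusted p = 0.245 and 0.144). EIF2AK3, the third sensor (PERK), did not pass, at 0.19 (SE 0.09, adjusted p = 0.284). It shares 781 exonic bases with AC104134.1 and 38 with AC062029.1, each on the opposite strand.

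The remaining lists had no gene past the threshold in edgeR's test. The 11 partners and regulators had a median log2 fold change of 0.04, with none lower and 2 higher at an unadjusted p of 0.05, and the 6 other CREB and ATF factors had a median of 0.04, with none at that level. The 5 tested proprotein convertases, relatives of MBTPS1, had a median of 0.18, all above 0 and none past an unadjusted p of 0.05. The 9 tested intramembrane proteases, which cut in the membrane as MBTPS2 does, had a median of -0.08, with 1 lower at an unadjusted p of 0.05.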

How the data were processed

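What the authors deposited is a table of whole-number read counts for each gene in all 10 samples, without normalization. The submitters' processing notes name cutadapt 1.10, STAR 2.6.0c and featureCounts. The build, annotation and strand setting were not given in the sources used here. The 58721 versioned gene IDs all match GENCODE release 29 (GRCh38), from which names, coordinates and lengths were taken. SPRING1 carries an older name there.

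Counts were tested as deposited with the R package edgeR (version 4.0.16, R version 4.3.3; TMM factors; filterByExpr, at least 10 counts and a total of at least 15; quasi-likelihood test, two-sided, genotype as the only term), and p-values were adjusted by Benjamini-Hochberg over 17045 genes. The SE was obtained from the log2 fold change and its F value, as their ratio after taking the root of F. The common biological coefficient of variation was 0.282. The test was checked on simulated data. The members and lists were chosen with earlier results of these data known.

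Named genes were the 8 members; ERN1, EIF2AK3, XBP1, HSPA5, SREBF1, SREBF2, SCAP, CREB3L3 and DDX3X whatever their values; up to 4 genes past the threshold in each list; the 5 genes most like CREB3L1 by each measure (mean of at least 1 CPM, log2 CPM with a prior count of 1); and its nearest tested neighbours. ATP6V1C2 and other overlapping genes, DDB2 and the marker genes were added with their values in view. The 5 marker lists covered B cells, T cells, myeloid, stromal with epithelial, and erythroid cells. Protein sequences were not analysed here. Of the genes that the likeness rule names, 1 of the likeness rule is not reported here.

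Alternatives tried were scaling by RLE, by upper quartiles and by library size, dropping the low-count filter, asking for 1 CPM in 4 samples, DESeq2 1.42.0, limma-voom (limma 3.58.1), the robust fit, an adjusted p of 0.01, the replicate number as a block, the longest transcript as length, Spearman's rho, and leaving out each sample in turn. The 2 sets of samples as a covariate, and each set alone, were added after seeing the data.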

Additional observations from a re-analysis of the deposited data

Results flagged for a closer look

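In 2 of 42 groups of samples checked, 1 sample lay far from the rest, and chance flags about 1 group in 20. CREB3L4 was at 19.3 CPM in wild-type replicate 4, where the next wild-type sample was at 12.9 CPM. XBP1 was at 123 CPM in R475C replicate 4, the shallowest library, where the next R475C sample was at 137 CPM.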

How the results depend on the processing

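For CREB3L1 the log2 fold change lay between -3.60 and -3.05 without 1 sample and was -4.02 in set 2 alone. In set 1 alone CREB3 was at 0.0044 and MBTPS1 at 0.11. The genes of the lists called lower (6) and higher (1) were 10 and 2 with DESeq2, 10 and 2 with the sets as a covariate, 2 and 1 in set 1 alone, 5 and 1 in set 2 alone, 1 and 0 at an adjusted p of 0.01, and between 1 and 8 lower and 0 and 3 higher without 1 sample. Calls over all genes, 419 as reported, were 1047 with DESeq2, 1128 with the covariate and 142 to 794 without 1 sample. Of the genes most like CREB3L1, Spearman's rho kept 1 over samples and 3 over deviations. With the replicate number as a block, edgeR called 0 lower and 0 higher (9 and 3 at an unadjusted p of 0.05) and 0 of all 17045 genes (1961 unadjusted), so the calls of XBP1 (adjusted p = 0.120), CREB3L1, at -3.39, and all other genes were lost. Whether the numbers pair samples is not stated in the labels. No pairing was seen in the deviations from the genotype means. Same-numbered samples had correlations of 0.337, 0.159, -0.269 and -0.212 there, and 0 of 8 correlated best with their own number. The cause of these changes was not tested. Depth limits CREB3L1 in R475C, where the shallowest library held 10 counts.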
